A study of Mus musculus with 6 samples.

Results

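The cytochrome P450 genes of the mouse lung were examined, taken as every row of the deposited table whose symbol is Cyp followed by a family number, a subfamily letter or letters and a gene number. This rule found 53 genes among 29753 rows, and 31 of them had enough counts to be tested. Another 6 rows with P450 symbols, Cyp51 and rows such as Cyp4a12a whose symbols end in a letter or a pseudogene suffix, lie outside the rule. The libraries are bulk RNA sequencing of whole lungs of balb/c mice, 3 labelled day 14 (D14) and 3 labelled day 0 (D0), both counted from an orthotopic implantation. The implanted K7M2 cells are a murine bone tumour line known for metastasis to lung. No D14 lungs without implanted cells were analysed here, so the tumour, the procedure, the age of the animals and the day of collection cannot be told apart. The labels call the 3 libraries of a day biological replicates. They do not give the sex or age of the mice, or whether a library pools several animals.

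P450 enzymes are haem proteins that insert an oxygen atom into a substrate. Those of the endoplasmic reticulum take electrons from the reductase encoded by Por and from cytochrome b5, and those of mitochondria take them from ferredoxin. In the lung, club cells of the airways are rich in P450 enzymes that oxidise inhaled compounds, other members make or break down eicosanoids, and members of the Cyp26 family clear retinoic acid.

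Library totals lay between 14878101 and 17385006 counts. D0 replicate 3 stood apart, at 82.8 on the first principal component of all tested genes against −41.5 to 15.7 in the other libraries (42.6% of the variance). The extraction text of the labels names macrophages, but the lung epithelial genes Sftpc and Scgb1a1 had 12419 to 34550 and 7314 to 23022 CPM, the counts divided by TMM-scaled library size times 1000000. Of 12 endothelial marker genes, all were higher at D14 by fold change and 4 had an unadjusted p under 0.05, beside 46.9% of all tested genes higher by sign and 5.48% higher with such a p. Their summed level was 6793 to 7415 CPM in D14 libraries and 3392 to 6303 CPM in D0 libraries. In bulk tissue, fewer cells of a type and less RNA per cell cannot be told apart.

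The regions upstream of Cyp26b1 and Cyp4f13, the only members with an unadjusted p under 0.05, and of Cyp1a1, the member whose textbook regulator is the aryl hydrocarbon receptor, are shown to give the sequence context of the genes described most fully. They come from RefSeq for GRCm38.p6 and run 5′ to 3′ on the gene's strand. No base shown is exonic in GENCODE: the stretches of Cyp26b1 and Cyp4f13 end where a GENCODE exon begins, before the RefSeq start. That of Cyp1a1 ends at the RefSeq start and lies in an intron of the GENCODE gene, which begins farther upstream. Capitals mark GCGTG (the core bound by the aryl hydrocarbon receptor with ARNT), TATAAA (the TATA box) and CCAAT (the CCAAT box) or their reverse complements, which do not overlap each other here.
Cyp26b1, chr6:84593909-84594060, minus strand: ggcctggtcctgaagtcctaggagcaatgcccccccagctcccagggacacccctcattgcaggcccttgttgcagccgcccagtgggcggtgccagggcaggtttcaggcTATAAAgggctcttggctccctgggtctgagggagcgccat
Cyp4f13, chr17:32947403-32947611, minus strand: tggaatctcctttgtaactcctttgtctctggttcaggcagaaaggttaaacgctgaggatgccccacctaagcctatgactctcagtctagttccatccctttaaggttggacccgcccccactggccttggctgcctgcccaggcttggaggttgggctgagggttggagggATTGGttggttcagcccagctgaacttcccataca
Cyp1a1, chr9:57697363-57697612, plus strand: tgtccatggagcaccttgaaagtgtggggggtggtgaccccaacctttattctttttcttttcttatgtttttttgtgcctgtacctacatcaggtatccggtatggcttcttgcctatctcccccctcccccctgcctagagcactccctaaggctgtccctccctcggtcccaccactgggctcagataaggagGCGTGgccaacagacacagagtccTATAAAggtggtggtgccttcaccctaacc
The TATAAA of Cyp1a1 starts 30 bases and its GCGTG 54 bases before the RefSeq start. The TATAAA of Cyp26b1 starts 139 bases before the RefSeq start, and the ATTGG of Cyp4f13, CCAAT on the other strand, 76 bases before. Searched on both strands over the 250 bases before the start, TATAAA was present for 14 of the 44 members found in the RefSeq table and in 12.4% of all 32851 promoters. GCGTG was present for 11 of 44 members and in 28.2% of all promoters, and CCAAT for 19 of 44 members and in 33.8%. These are matches of letters and say nothing of binding. Members were counted by gene symbol and the shares by promoter, which are unlike units where a gene has several promoters.

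No member passed an adjusted p of 0.05 over all genes (edgeR quasi-likelihood test), where 0.0339% of the 17686 tested genes did. At an unadjusted p under 0.05 stood 2 of the 31 tested members, Cyp26b1 higher and Cyp4f13 lower at D14, against 12.6% of all tested genes. Ranges of the D14 and D0 libraries did not overlap in 6 of the 31 tested members, 4 higher and 2 lower at D14, against 21.6% of all tested genes, so neither share was above the background. The median log2 fold change of the 31 members was −0.07 (13 higher, 18 lower), beside −0.03 over all tested genes, of which 46.9% were higher. DESeq2 on the same counts called 1 member, Cyp26b1, against 1.55% of all genes, and limma-voom called 0. Without D0 replicate 3, which stood apart, 0 members had an unadjusted p under 0.05.

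**Figure D1:**
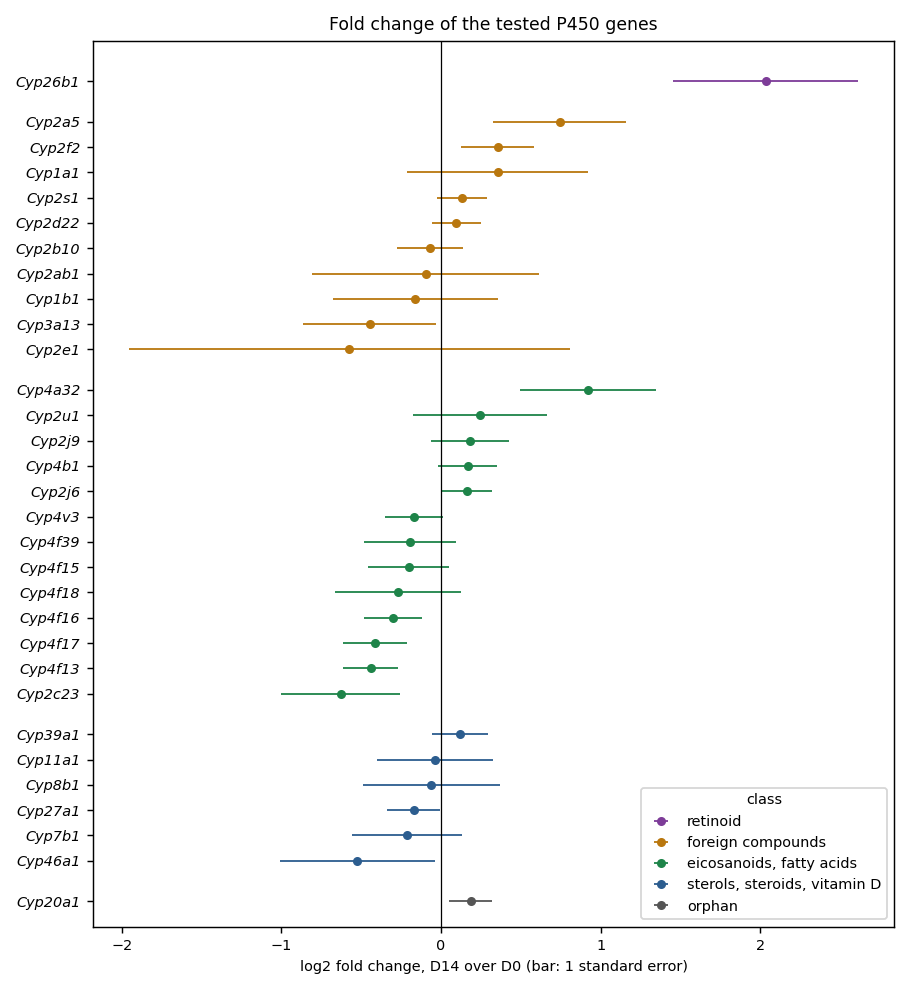
Log2 fold changes of D14 over D0 for the 31 tested P450 genes, by class, from edgeR; points are estimates and bars 1 standard error, and a value above 0 means higher at D14. Cyp26b1 stands alone at 2.03, while the 6 tested Cyp4f genes lie between −0.44 and −0.19.

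Among the members that clear retinoic acid, Cyp26b1, a retinoic acid hydroxylase, had the largest log2 fold change of the 31 members. It had 21.4, 74.2 and 29.1 CPM in D14 libraries 1 to 3, against 6.15, 17.5 and 6.80 CPM in D0 libraries 1 to 3. All 3 D14 libraries were above all 3 D0 libraries, and D14 replicate 2 was the highest by a factor of 2.55 over the next. On the log2 scale the difference was 2.03 (SE 0.58; adjusted p = 0.348, edgeR) and the unadjusted edgeR p was 0.00893. With DESeq2 it was 2.05 (SE 0.54; adjusted p = 0.0140). Over all alternatives its adjusted p ran from 0.0140 to 0.725. The log2 fold change was 1.32 without D14 replicate 2, and 1.82 without D0 replicate 3, where the unadjusted edgeR p was 0.0682. Cyp26b1 lies on chromosome 6 from 84571414 to 84593908 in GRCm38 and shared none of the 75-base words of its transcript with other genes. The relatives Cyp26a1 and Cyp26c1 had at most 3 counts in any library and were not tested.

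Of 17 other genes of retinoid transport, synthesis, storage and reception, 10 were higher and 7 lower at D14, with a median log2 fold change of 0.07, and 0 passed the adjusted threshold. At an unadjusted p under 0.05 stood 2 of them on the higher side and 0 on the lower, beside 5.48% and 7.09% of all tested genes. Stra6, a membrane receptor for retinol-binding protein, had 0.752, 6.18 and 0.768 CPM in D14 libraries and 0, 0.446 and 0.631 CPM in D0 libraries. As with Cyp26b1, D14 replicate 2 was its highest library. Every other library had at most 0.768 CPM of Stra6, so its difference between the days rests largely on that library. Lrat, which stores retinol as esters, had 101, 119 and 121 CPM in D14 libraries and 102, 78.2 and 66.8 CPM in D0 libraries (log2 fold change 0.47, SE 0.19; adjusted p = 0.385, edgeR). The Lrat ranges overlapped, and its highest library was D14 replicate 3. Aldh1a1 and Aldh1a2, which make retinoic acid, stood at 0.36 (SE 0.17) and −0.58 (SE 0.34). Of 14 fibroblast and mural cell marker genes, 8 were higher and 6 lower at D14. At an unadjusted edgeR p under 0.05 stood 2 of these 14 on the higher side and 0 on the lower, beside the same 5.48% and 7.09%. They summed to 8111 to 9464 CPM in D14 libraries and 7542 to 10228 CPM in D0 libraries. The part of these cells in the Cyp26b1 values was not tested.

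The classes used here were assigned by family or subfamily prefix, not by the established substrates of each gene. Members placed in the class of foreign compounds numbered 20, of which 10 were tested. Of these 5 were higher and 5 lower at D14, with a median log2 fold change of 0.01. Of the 10, 0 had an unadjusted edgeR p under 0.05, beside 12.6% of all tested genes. Cyp2f2, the enzyme of mouse club cells that activates naphthalene, held 39.2% to 56.2% of all P450 CPM in the 6 libraries. It had 1631, 1513 and 1861 CPM in D14 libraries and 1704, 1150 and 1056 CPM in D0 libraries. D0 replicate 1 lay within the D14 range, and the other D0 libraries lay below it. The log2 fold change was 0.36 (SE 0.23; adjusted p = 0.508, edgeR), and 0.60 (SE 0.18; adjusted p = 0.194) without D0 replicate 1; over all alternatives the adjusted p ran from 0.194 to 0.796. An antisense gene, Gm15883, overlaps 274 exonic bases of Cyp2f2 and had 48 to 243 counts per library, against 15075 to 29368 for Cyp2f2; the strand setting of the counting is not given in the sources used here.

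Cyp2b10, a member induced by foreign compounds in liver, had 278, 284 and 354 CPM in D14 libraries and 241, 361 and 357 CPM in D0 libraries. The D14 values lay inside the D0 range. Cyp2s1, an enzyme of epithelia, had 122, 126 and 126 CPM in D14 libraries and 130, 116 and 94.5 CPM in D0 libraries, a log2 fold change of 0.13 (SE 0.16). The D14 libraries were close together and lay within the D0 range. Of 12 club cell marker genes, 9 were higher and 3 lower at D14, with a median log2 fold change of 0.28. Their summed level was 23368, 27524 and 19763 CPM in D14 libraries and 17319, 10771 and 22022 CPM in D0 libraries. Scgb1a1 made up most of each sum. Among D0 libraries the sum was highest in replicate 3, where Cyp2f2 was lowest. Muc5b, another gene of the list, had 50.7, 41.5 and 61.1 CPM in D14 libraries and 31.5, 28.9 and 23.4 CPM in D0 libraries. Unlike the sum, Muc5b was lowest in D0 replicate 3, as Cyp2f2 was. The part of club cell numbers in the Cyp2f2 values was not tested.

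Per kilobase of the longest annotated transcript, the levels fell into an order at the top. Cyp2f2 averaged 796 CPM per kb over the 6 libraries, Cyp4b1 306, Cyp2b10 163 and Cyp2s1 37.6 CPM per kb. The library ranges of these 4 genes did not overlap each other, at 566 to 997, 262 to 360, 126 to 188 and 29.9 to 41.2 CPM per kb. Cyp2e1 (26.4), Cyp2a5 (22.6), Cyp20a1 (18.8), Cyp1a1 (16.9), Cyp27a1 (16.5), Cyp4v3 (15.8), Cyp2d22 (14.6) and Cyp4f13 (13.6 CPM per kb) came next, and each of these overlapped its neighbours in the order, Cyp2e1 and Cyp2a5 also overlapping Cyp2s1.

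**Figure D2:**
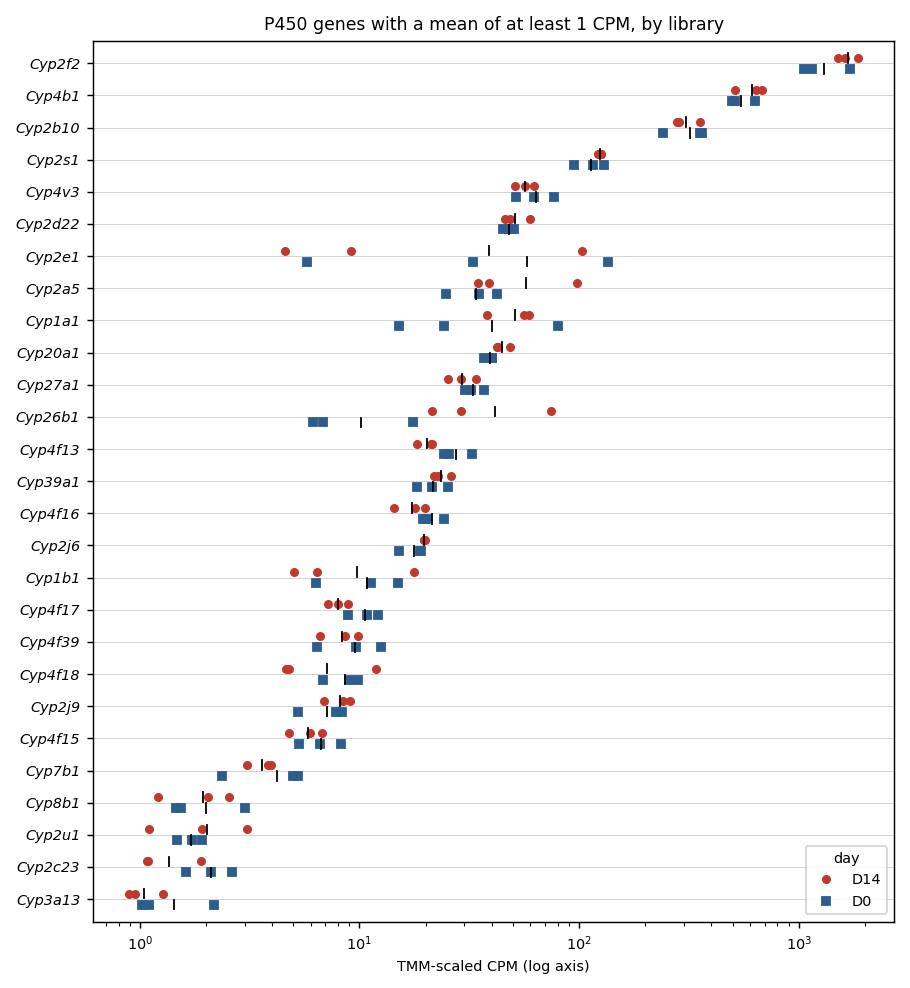
Level of the 27 P450 genes with a mean of at least 1 CPM, in TMM-scaled CPM on a log axis; circles are D14 libraries and squares D0 libraries, with a bar at the mean of each day. Cyp2f2, Cyp4b1, Cyp2b10 and Cyp2s1 have the highest means, single libraries of Cyp2e1 reach the range of Cyp2s1 or above it, and Cyp2e1 has the widest spread within both days.

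Cyp2a5, which oxidises coumarin and nicotine, had 38.8, 34.5 and 97.9 CPM in D14 libraries and 24.7, 42.4 and 35.0 CPM in D0 libraries. D14 replicate 3 was 2.31 times the next library, and the remaining D14 libraries lay within the D0 range. The log2 fold change was 0.74 (SE 0.42; adjusted p = 0.465, edgeR) with all libraries and 0.11 without D14 replicate 3. Its close copy Cyp2a4 had 0, 0 and 4 counts in D14 libraries and 2, 0 and 3 in D0 libraries. The coding sequences of both are 1482 bases long and 98.4% identical. Of the 75-base words of the Cyp2a5 transcript, 18% also occur in Cyp2a4 and 25.5% in any other gene. The split of reads between Cyp2a5 and Cyp2a4 is therefore uncertain. The 120 coding bases in which they differ most, bases 550 to 669 of each, are shown with the 6 differing bases in capitals (GRCm38, plus strand; GENCODE transcripts; the genomic span includes an intron).
Cyp2a5, chr7:26837147-26838882: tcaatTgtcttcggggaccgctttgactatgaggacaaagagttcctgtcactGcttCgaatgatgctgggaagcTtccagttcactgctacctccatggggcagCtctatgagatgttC
Cyp2a4, chr7:26308984-26310720: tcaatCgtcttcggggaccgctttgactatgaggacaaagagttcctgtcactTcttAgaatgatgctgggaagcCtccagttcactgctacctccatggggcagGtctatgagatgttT

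Cyp1a1, which oxidises polycyclic aromatic hydrocarbons and is a target of the aryl hydrocarbon receptor, had 59.1, 56.4 and 38.0 CPM in D14 libraries and 80.4, 24.2 and 15.1 CPM in D0 libraries. The D0 libraries spanned a 5.31-fold range that enclosed all 3 D14 libraries. Over all libraries the log2 fold change was 0.35 (SE 0.57; adjusted p = 0.791, edgeR). It was 1.38 (SE 0.29; adjusted p = 0.162) without D0 replicate 1, and −0.03 (SE 0.53) without D0 replicate 3, and the adjusted p ran from 0.162 to 0.987 over all alternatives. The summed endothelial markers had the same order among the D0 libraries, at 6303, 4572 and 3392 CPM in D0 replicates 1, 2 and 3. They were 7017, 6793 and 7415 CPM in D14 replicates 1, 2 and 3. Among D14 libraries they were highest in replicate 3, where Cyp1a1 was lowest. Their part in the Cyp1a1 values was not tested. Cyp1a2, its neighbour on chromosome 9, had at most 4 counts in a library. Cyp1b1, the other tested member of this family, had 5.03, 6.43 and 17.7 CPM in D14 libraries and 11.3, 6.31 and 14.99 CPM in D0 libraries, with overlapping ranges and a log2 fold change of −0.16 (SE 0.52).

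Of 9 tested genes of the aryl hydrocarbon receptor pathway other than P450 genes, 5 were higher and 4 lower at D14, and 0 passed the adjusted threshold. Tiparp, a target and repressor of the receptor, had 97.2, 105 and 111 CPM in D14 libraries and 36.5, 69.6 and 58.5 CPM in D0 libraries. The ranges did not overlap, and D14 exceeded D0 by 0.93 on the log2 scale (SE 0.24; adjusted p = 0.347, edgeR). D0 replicate 1, the highest library for Cyp1a1, was the lowest for Tiparp. Ahr itself had 102, 104 and 108 CPM in D14 libraries and 163, 105 and 64.7 CPM in D0 libraries, a log2 fold change of −0.09 (SE 0.30). Its order was that of Cyp1a1 among the D0 libraries and the reverse of it among the D14 libraries. Nqo1 and Aldh3a1, enzymes that the receptor can induce, stood at 0.16 (SE 0.28) and −0.93 (SE 0.52).

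**Figure D3:**
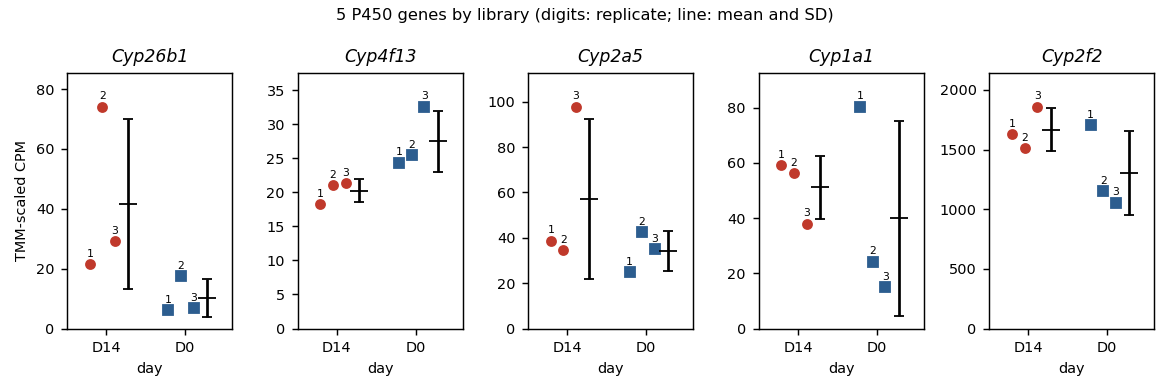
TMM-scaled CPM of 5 P450 genes in each library; circles are D14 and squares D0 libraries, digits give the replicate, and the line shows the mean with 1 SD (n = 3 each). Only Cyp26b1 and Cyp4f13 have D14 and D0 ranges that do not overlap, and D0 replicate 1 lies apart from the other D0 libraries for Cyp1a1 and Cyp2f2.

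Cyp2e1, which oxidises ethanol and is best known from liver, varied most within each day. It had 4.57, 9.11 and 103 CPM in D14 libraries and 5.74, 33.0 and 135 CPM in D0 libraries. Replicate 3 of each day was far above the other libraries, a range of 22.5-fold within D14 and 23.5-fold within D0, and the days overlapped. The log2 fold change was −0.57 (SE 1.38; adjusted p = 0.867, edgeR). It was 1.01 (SE 1.74) without D0 replicate 3 and −3.08 (SE 1.27; adjusted p = 0.725) without D14 replicate 3, and the adjusted p ran from 0.584 to 0.990 over all alternatives. Cfd, an adipocyte gene, had 13.997, 32.8 and 250 CPM in D14 libraries and 15.8, 98.1 and 338 CPM in D0 libraries, the same order of all 6 libraries as Cyp2e1. Adipoq, which encodes adiponectin, had 2.95, 6.69 and 79.1 CPM in D14 libraries and 2.90, 23.3 and 63.0 CPM in D0 libraries. The 10 adipocyte genes summed to 110 to 1566 CPM in D14 libraries and 136 to 1032 CPM in D0 libraries; 7 of the 10 were higher and 3 lower at D14, and none was at 0 in all libraries. Hepatocyte genes were close to 0, with 9 genes of the list summing to 2.83 to 7.74 CPM in D14 libraries and 4.18 to 6.45 CPM in D0 libraries, and Alb at 0.580 to 2.102 CPM over all libraries. The part of adipose tissue in the Cyp2e1 values was not tested.

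**Figure D4:**
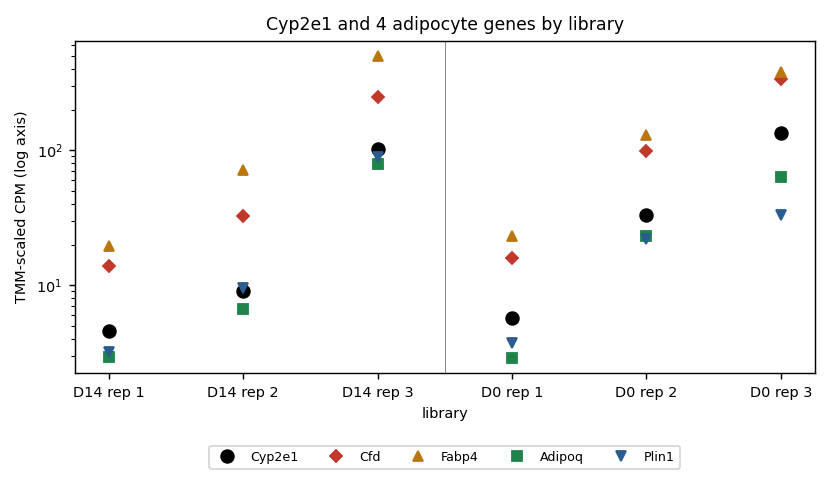
TMM-scaled CPM on a log axis of Cyp2e1 and the adipocyte genes Cfd, Fabp4, Adipoq and Plin1 in each library, D14 on the left and D0 on the right. All 5 genes are highest in replicate 3 and lowest in replicate 1 within each day, with Cyp2e1 at 4.57 to 103 CPM in D14 libraries and 5.74 to 135 CPM in D0 libraries.

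The remaining tested members of this class were steadier or low. Cyp2d22 had 48.5, 45.8 and 59.5 CPM in D14 libraries and 50.8, 48.1 and 45.0 CPM in D0 libraries, a log2 fold change of 0.10 (SE 0.15). Cyp3a13, a mouse member of the Cyp3a subfamily, averaged 1.04 ± 0.203 CPM at D14 and 1.43 ± 0.643 CPM at D0 (SD, n = 3 each). Cyp2ab1 stood at −0.10 (SE 0.71) on the log2 scale.

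Members of eicosanoid and fatty acid metabolism numbered 19, of which 13 were tested, 5 higher and 8 lower at D14, with a median log2 fold change of −0.19. Cyp4b1, a hydroxylase of fatty acids and of several lung toxicants, was the most abundant of them. It had 515, 641 and 682 CPM in D14 libraries and 510, 496 and 630 CPM in D0 libraries, on the log2 scale a difference of 0.17 (SE 0.18; adjusted p = 0.694, edgeR). The ranges overlapped. Cyp4f13, of the subfamily that hydroxylates leukotrienes and other fatty acids, had 18.3, 21.1 and 21.4 CPM in D14 libraries and 24.4, 25.5 and 32.6 CPM in D0 libraries. All D14 libraries lay below all D0 libraries, with D0 replicate 3 the highest. The log2 fold change was −0.44 (SE 0.17; adjusted p = 0.377, edgeR) and the unadjusted edgeR p was 0.0338. Leaving out any of 5 libraries, all except D0 replicate 1, put the unadjusted edgeR p above 0.05, at most at 0.114 without D14 replicate 1.

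All 6 tested Cyp4f genes of 9 had negative log2 fold changes, with a median of −0.29, beside −0.03 over all tested genes, of which 53.1% were lower at D14. Cyp4f17 had 7.17, 7.96 and 8.83 CPM in D14 libraries and 8.88, 10.8 and 12.2 CPM in D0 libraries, ranges that lay next to each other without overlapping. Cyp4f16 had 17.8, 19.8 and 14.4 CPM in D14 libraries and 19.5, 20.3 and 24.2 CPM in D0 libraries. Cyp4f16 shared 16.1% of its 75-base words with other genes, most of them with Cyp4f37, whose 1 to 7 counts where present are therefore uncertain. Cyp4f39, the mouse counterpart of a human enzyme of skin lipids, stood at −0.19 (SE 0.29) and changed sign without D0 replicate 1, at 0.06. Cyp4f18, which hydroxylates a leukotriene of mouse neutrophils, had 4.80, 11.9 and 4.61 CPM in D14 libraries and 6.85, 8.99 and 9.88 CPM in D0 libraries. Its D14 replicate 2 was above all D0 libraries, and the others were below them. The protein-coding gene Zfp961, on the opposite strand, overlaps 181 exonic bases of Cyp4f18. It had 41 to 118 counts per library, against 72 to 187 for Cyp4f18, and the strand setting of the counting is not given. Of the 9 genes, 8 lie together on chromosome 17 between 32452723 and 32947402, and Cyp4f18 lies on chromosome 8.

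Cyp4v3, a fatty acid hydroxylase, averaged 56.8 ± 5.76 CPM at D14 and 63.8 ± 12.6 CPM at D0 (SD, n = 3 each). The epoxygenase Cyp2j6 had 19.7, 19.8 and 19.8 CPM in D14 libraries and 15.2, 19.0 and 18.8 CPM in D0 libraries, ranges that did not overlap (log2 fold change 0.16, SE 0.16; adjusted p = 0.658, edgeR). Cyp2j9 stood at 0.18 (SE 0.24), Cyp2u1, a fatty acid hydroxylase, at 0.24 (SE 0.42) and Cyp2c23, of an epoxygenase subfamily, at −0.63 (SE 0.37). Cyp4a32 had 18, 11 and 24 counts in D14 libraries and 9, 10 and 8 counts in D0 libraries, without overlap, and shared 30.4% of its 75-base words with other genes. Of 19 eicosanoid genes outside the P450 symbols, 6 were higher and 13 lower at D14, with a median of −0.10, and 0 passed the adjusted threshold. Hpgd, which inactivates prostaglandins, had 417, 522 and 545 CPM in D14 libraries and 333, 386 and 319 CPM in D0 libraries (log2 fold change 0.51, SE 0.17; adjusted p = 0.364, edgeR).

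Members of sterol, steroid and vitamin D metabolism numbered 10, of which 6 were tested, 1 higher and 5 lower at D14. Their median log2 fold change was −0.12, and 0 had an unadjusted edgeR p under 0.05, beside 12.6% of all tested genes. Cyp27a1, the mitochondrial sterol hydroxylase of macrophages and other cells, had 25.2, 29.0 and 34.0 CPM in D14 libraries and 32.3, 36.7 and 30.1 CPM in D0 libraries. Its ranges overlapped, with a log2 fold change of −0.17 (SE 0.17). Of 11 macrophage marker genes, 3 were higher and 8 lower at D14, with a median log2 fold change of −0.46, beside −0.03 over all tested genes. At an unadjusted edgeR p under 0.05 stood 2 of these 11 on the lower side and 0 on the higher, beside 7.09% and 5.48% of all tested genes. They summed to 458 to 894 CPM in D14 libraries and 326 to 1493 CPM in D0 libraries. Fabp4 is in this list and also in the adipocyte list. The part of macrophages in the Cyp27a1 values was not tested. The oxysterol hydroxylases Cyp39a1 and Cyp7b1 stood at 0.12 (SE 0.18) and −0.21 (SE 0.35), and Cyp8b1, a hydroxylase of bile acid synthesis, at −0.06 (SE 0.43). Cyp11a1, which starts steroid hormone synthesis, had 12, 13 and 11 counts in D14 libraries and 15, 10 and 11 in D0 libraries. Among 18 enzymes of cholesterol synthesis other than Cyp51, 11 were higher and 7 lower, with a median of 0.01, and 0 passed the adjusted threshold. Mvk, the mevalonate kinase, stood at −0.40 (SE 0.15), with ranges that did not overlap. Of 10 tested steroid and oxysterol enzymes, 4 were higher and 6 lower, and 0 had an unadjusted edgeR p under 0.05, beside the same 12.6%. The most abundant, Hsd17b11 and Hsd17b4, stood at 0.15 (SE 0.17) and 0.04 (SE 0.15).

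Cyp20a1, a member with no established substrate, had 42.5, 48.3 and 42.7 CPM in D14 libraries and 40.1, 40.1 and 37.1 CPM in D0 libraries. The ranges did not overlap, and the log2 fold change was 0.19 (SE 0.13; adjusted p = 0.545, edgeR).

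The other 22 members were below the count filter. Of these, 21 had at most 10 counts in every library and 20 had 0 counts in at least 1 library, where 3 counts, 0.174 to 0.210 TMM-scaled CPM, set the limit for counting error. Cyp2c55 had 3, 33 and 0 counts in D14 libraries and 0 in each D0 library, so that D14 replicate 2 held nearly all of its counts. Cyp4f40 had 2, 4 and 4 counts in D14 libraries and 0 in each D0 library. The vitamin D enzymes Cyp27b1 and Cyp2r1, the steroid enzyme Cyp17a1 and the bile acid enzyme Cyp7a1 had at most 5 counts in a library.

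Of 9 genes of electron supply, 2 were higher and 7 lower at D14, with a median log2 fold change of −0.17. Por, the reductase that all P450 enzymes of the endoplasmic reticulum share, had 226, 224 and 218 CPM in D14 libraries and 207, 249 and 311 CPM in D0 libraries, and Fdxr, the mitochondrial ferredoxin reductase, had 8.73, 6.81 and 6.97 CPM in D14 libraries and 11.3, 8.93 and 11.4 CPM in D0 libraries (log2 fold change −0.49, SE 0.21; adjusted p = 0.393, edgeR). Of 11 genes of haem synthesis and turnover, 2 were higher and 9 lower, with a median of −0.43. Against that majority, Alas1, the first and rate-limiting enzyme of haem synthesis outside red cells, had 215, 261 and 268 CPM in D14 libraries and 132.5, 168 and 161 CPM in D0 libraries, without overlap (log2 fold change 0.69, SE 0.17; adjusted p = 0.347, edgeR). Ppox, a later enzyme of that synthesis, stood at −0.47 (SE 0.16), and Blvrb, a biliverdin reductase, at −0.67 (SE 0.23). Red cells also express genes of this list, and 8 red cell genes summed to 16431 to 28899 CPM in D14 libraries and 9227 to 52393 CPM in D0 libraries. Of these 8, 5 were higher and 3 lower at D14. At an unadjusted edgeR p under 0.05 stood 2 on the higher side and 0 on the lower, beside 5.48% and 7.09% of all tested genes. The part of red cells was not tested.

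Enzymes that act beside P450 enzymes on foreign compounds gave no adjusted call. Of 23 tested oxidising and hydrolysing enzymes, 12 were higher and 11 lower at D14, with Fmo1, a flavin monooxygenase, at 286, 312 and 334 CPM in D14 libraries and 261, 203 and 112 CPM in D0 libraries, and Cbr3, a carbonyl reductase, at −0.69 (SE 0.27) on the log2 scale. Of 31 tested conjugating enzymes, 10 were higher and 21 lower, and 5 of the lower ones and 0 of the higher had an unadjusted p under 0.05, beside 7.09% of all tested genes on the lower side and 5.48% on the higher. Ugt1a6a, a glucuronosyltransferase, had 10.006, 5.92 and 10.2 CPM in D14 libraries and 20.7, 18.9 and 34.1 CPM in D0 libraries (log2 fold change −1.50, SE 0.31; adjusted p = 0.316, edgeR). Gstt2, a glutathione transferase, stood at −0.98 (SE 0.25) and Mgst2, a microsomal one, at −0.80 (SE 0.22). The Ugt1a genes share their last exons, so the split of reads among them is uncertain. Of 13 tested nuclear receptors that control P450 genes, 6 were higher and 7 lower, and Nr1h2, an oxysterol receptor, stood at −0.48 (SE 0.18; adjusted p = 0.368, edgeR).

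By position, 33 of the 53 members lie in 8 clusters with gaps under 500 kb. The largest cluster, on chromosome 7 from 25802475 to 27158668, holds 11 members, among them Cyp2f2, Cyp2b10, Cyp2s1 and Cyp2a5. Those 4 were its only tested members, with log2 fold changes between −0.07 and 0.74. The Cyp4f cluster on chromosome 17 holds 8 members, and its 5 tested genes stood between −0.44 and −0.19.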

How the data were processed

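Per the labels' protocols, RNA was isolated with TRIzol and libraries were made with an NEB kit. The submitters' processing notes name CASAVA 1.8, HISAT2 2.1.0, StringTie 1.3.4b, edgeR and the build GRCm38 without saying what each did. Neither counting tool nor strand setting is given in the sources used here. The authors deposited estimated counts for every symbol, without depth scaling, and 0 columns beyond those of the 6 samples. Rounding them changed none of the values used. Of 29757 lines, 4 that were empty or displaced are not analysed here, and 50 lines repeating a symbol were kept apart.

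edgeR 4.0.16 (R 4.3.3) was run on all 6 libraries: TMM factors, its default filter, a robust two-sided quasi-likelihood test over 17686 genes and Benjamini-Hochberg adjustment at 0.05. The standard error is the absolute log2 fold change divided by the square root of F. An exact permutation test of 3 against 3 libraries cannot go below p = 0.1, so none was used. In 2 simulated data sets of 17686 genes, 200 of them changed, 17.4% were recovered at a true log2 change of 1 and 78.1% at 2; 32 of 216 calls were false.

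Members named have an unadjusted p under 0.05, are among the 20 highest by mean CPM, lead their class or subfamily at a mean of at least 1 CPM, or have 1 library 3 times away from the next. Of each list, up to 3 genes with an unadjusted p under 0.05, or else the 2 most abundant, are named. One gene that this rule names is not reported here. Other genes named were chosen after their values were seen. The members and lists were chosen with earlier results of these data known. Alternatives were DESeq2 1.42.0, limma-voom (limma 3.58.1), RLE factors, no scaling factors, no count filter, a filter of 1 CPM in at least 3 libraries, edgeR's non-robust estimation, a fit blocked on replicate number, and the omission of each library. Positions and lengths come from GENCODE for GRCm38, where all 53 symbols were found. Shared sequence is the share of the 75-base words of the longest transcript that occur in transcripts of other genes. Floors cover counting error only.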

Additional observations from a re-analysis of the deposited data

How the results depend on the processing

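Depth limits the 22 members below the filter. The count of members past an adjusted p of 0.05 was 0 with all libraries and in 13 of 14 alternatives, and 1 with DESeq2 (Cyp26b1). The count at an unadjusted p under 0.05, 2 with all libraries, ran from 0 to 5 when 1 library was left out: leaving out D0 replicate 3 gave 0, D0 replicate 2 gave 1, D14 replicate 1 gave 1, D14 replicate 3 gave 2, D14 replicate 2 gave 4 and D0 replicate 1 gave 5. It was 3 with no scaling factors or no count filter. The members' median log2 fold change, −0.07, ran from −0.106 to 0.0593 when 1 library was left out and was −0.138 with no scaling factors. Of 25 named members in 14 alternatives, 350 values in all, 336 kept their direction and side of the threshold, 1 passed it (Cyp26b1 with DESeq2, 2.05), and 13, of 8 genes, changed sign when 1 library was left out. With 1 library left out, their log2 fold changes ran from −0.0323 to 1.38 for Cyp1a1, −0.921 to 0.157 for Cyp1b1 (also 0.0654 and 0.139), −0.228 to 0.0329 for Cyp2b10 (also 0.00310 and 0.0207), −0.0220 to 0.173 for Cyp2d22, −3.08 to 1.01 for Cyp2e1, −0.181 to 0.551 for Cyp2u1, −0.408 to 0.0593 for Cyp4f39 and −0.310 to 0.366 for Cyp8b1 (also 0.195). The cause was not tested. With the replicate number as a block, the count stayed 0 adjusted and 2 unadjusted, now Cyp26b1 and Cyp2e1, and the median was −0.0515. Under this block Cyp26b1 stood at 1.99 (SE 0.19, adjusted p = 0.128, edgeR) and Cyp2e1 at −0.86 (SE 0.34, adjusted p = 0.584, edgeR). Over all tested genes, libraries with the same number deviated together only for number 1 (r = 0.119, −0.0548 and −0.0972 for numbers 1 to 3). Not every library correlated best with its own number. Such correlations among so few libraries cannot settle whether libraries of the same number belong together, and the labels state no shared batch.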

Other observations

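Rows with P450 symbols outside the rule held 1 abundant gene. Cyp51, the lanosterol demethylase of cholesterol synthesis, had 49.97, 55.5 and 38.4 CPM in D14 libraries and 33.4, 41.6 and 63.9 CPM in D0 libraries, or 0.05 on the log2 scale (SE 0.26; adjusted p = 0.941, edgeR). Cyp4a12b had 26, 51 and 110 counts in D14 libraries and 45, 19 and 28 in D0 libraries.

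Among factors that drive daily rhythms of P450 genes in liver, Dbp had 28.6, 8.28 and 9.15 CPM in D14 libraries and 14.2, 166 and 71.0 CPM in D0 libraries. Nfil3, a repressor at the same sites, had 16.9, 28.0 and 26.2 CPM in D14 libraries and 11.4, 4.97 and 13.4 CPM in D0 libraries (log2 fold change 1.25, SE 0.37; adjusted p = 0.357, edgeR). Of 6 genes of this list, 1 was higher and 5 lower at D14, and 0 passed the adjusted threshold.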
